A study of Bos taurus with 8 samples.

Results

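The cytosolic ribosomal proteins, the protein components of the 40S and 60S ribosomal subunits, were measured in granulosa cells of heifers at 3 ages. Members were taken by gene symbol from the annotation of the array: symbols that start with RPL or RPS and a digit, and RPSA, RPLP0, RPLP1 and RPLP2, without the RPS6K kinases. The symbols chose the members, and no measured value did. The rule gave 122 of 43794 probes and 69 of 15229 gene symbols. Of these, 120 probes of 68 genes passed the filter on dim signal, which left 22692 probes and 10206 genes of the whole array. The 68 genes were 39 of the large subunit, 25 of the small subunit, the 3 stalk proteins and RPS19BP1, which carries the prefix but is a binding partner of RPS19 and no part of the ribosome. The only symbol without a kept probe was RPL3L, a muscle copy of RPL3, which was not above background on any array, and 1 of 6 RPL7L1 probes was also left out.

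Holstein heifers were stimulated with progesterone (CIDR) and 6 injections of 30 mg FSH given every 12 h. The dominant follicle was aspirated 36 h before the hormones. Follicles were then aspirated through the vaginal wall 43 h after the last injection. The design text names 10 heifers, while 4 are on the arrays. RNA of the same animal at 8 and at 14 months of age was set side by side on 4 dual-colour arrays, and RNA at 11 and at 14 months on 4 more, so that each comparison had 4 heifers and both shared the animals and the 14-month age. All groups had the same hormone treatment, and no unstimulated animal was measured. RNA was extracted from pools whose makeup the labels do not give and was amplified in a linear way before labelling. Dyes were swapped: the younger sample was Cy5 for heifers 1 and 2, whereas for heifers 3 and 4 it was Cy3. The sample labels name granulosa cells, whereas the design text speaks of blastocysts. All 14 granulosa markers were above background, only KRT18 of 8 blastocyst and trophoblast markers was kept, and CDX2, NANOG and POU5F1 were not.

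Each ribosome joins a small subunit, which reads the mRNA, to a large subunit, which forms the peptide bonds. RPLP1 and RPLP2 hang as a flexible stalk from RPLP0 on the large subunit and recruit the translation factors that split GTP. The mRNAs of nearly all ribosomal proteins begin with a pyrimidine tract (TOP mRNAs) and are translated together when mTOR signalling is high, while their amounts are usually stable. In follicles, granulosa cells divide and make steroid enzymes under FSH, both of which draw on protein synthesis. Ribosomal protein genes have many processed pseudogenes and near-identical copies, so that a probe may bind more than the gene it is named for, and 40 of the 68 genes were measured by a single kept probe.

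Ribosomal protein spots were among the brightest of the array. Their median raw intensity lay between 11060 and 26179 in the 16 channels (2 on each of the 8 arrays), against 220 to 329 for all probes. Between 96.7% and 99.2% of member probes were above background on each channel, against 43.3% to 57.3% of all probes. Members were 28 of the 100 and 66 of the 500 brightest kept probes. The scanner records no value above 65535, and 10 member probes (8.20%) reached this ceiling in 1 or more channels, against 0.103% of all probes. RPS16 was at the ceiling in 9 of 16 channels, RPS13 and RPS21 in 4 each, RPLP0, RPS2 and RPS29 in 3 each, and RPL23A, RPL37, RPL7 and RPS28 in 1 each. None was at the ceiling on every array of an age, yet a ratio between spots this close to it can understate a change.

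At 8 months, 2 of the 120 probes rose against 14 months and none fell, at an adjusted p under 0.05 (limma, Benjamini-Hochberg over all kept probes). These were the single probe of RPS12 and the second of 2 probes of RPS9, both proteins of the small subunit. The share was 1.67% of member probes against 3.87% of all probes, or 3.27% counting rises alone. One probe a gene, the brightest, stands for each gene from here on, and by that measure 1 of 68 genes, RPS12, passed. At an unadjusted p under 0.05, 22 member probes were higher and 5 lower, where 13.1% and 11.6% of all probes were (18.3% and 4.17% of members). Of the 68 genes, 13 were higher in all 4 heifers, close to the background share of 17.4%. RPS15A alone was lower in all 4, and the background there was 16.1%.

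RPS12 is a small-subunit protein that in Drosophila is needed for the removal of cells with too few ribosomal proteins. Its raw intensities at 8 and 14 months were 22430 and 10081 in heifer 1, 32010 and 13538 in heifer 2, 26977 and 15186 in heifer 3, and 18494 and 10331 in heifer 4. The 8-month channel was the brighter one on all 4 arrays, the lowest 8-month value (18494) lay above the highest 14-month value of these arrays (15186), and no channel was near the ceiling. On the arrays of the 11-month comparison the 14-month values were 16768, 12427, 24283 and 13711, and that of heifer 3 lay above the 8-month values of heifers 1 and 4. After normalization the log2 ratios were 1.09, 1.17, 0.54 and 0.66 in heifers 1 to 4. The fitted change was 0.86 ± 0.31 (SD of the heifers, n = 4; a 1.82-fold rise), with an adjusted p of 0.0312 by limma. The call did not survive the loss of any 1 heifer (limma adjusted p from 0.0502 to 0.208), while the change stayed between 0.82 and 0.93.

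RPS9 lies near the entry of the mRNA channel of the small subunit. On its second probe the raw intensities at 8 and 14 months were 4772 and 2444, 6823 and 1276, 7143 and 2955, and 4044 and 1190 in heifers 1 to 4. Every 8-month value was above every 14-month value. The log2 ratios were 0.91, 2.45, 0.89 and 1.48, and the fitted change was 1.43 ± 0.73 (SD, n = 4), a 2.70-fold rise (limma adjusted p = 0.0375). Without heifer 2, 3 or 4 the adjusted p was 0.0596, 0.218 and 0.208. The brighter RPS9 probe was lower in heifer 1 (log2 ratio -0.20) and higher in heifers 2 to 4 (1.03, 1.16 and 1.19), and its change of 0.79 ± 0.66 (SD, n = 4) missed the threshold (limma adjusted p = 0.0946). Without heifer 1 it stood at 1.14 with a limma adjusted p of 0.0378, and without heifers 2, 3 and 4 in turn at 0.61, 0.72 and 0.71 (limma adjusted p = 0.162, 0.395 and 0.324). The probes of RPS9 thus agreed in direction in 3 of 4 heifers.

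**Figure D1:**
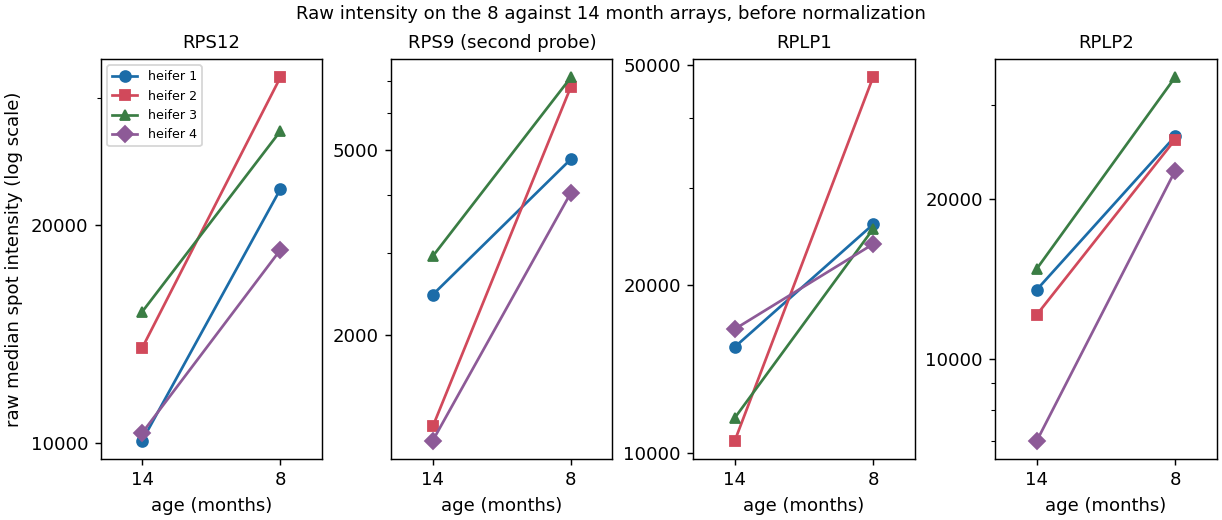
Raw median spot intensity (log scale, before normalization) of 4 probes on the arrays that set 8 against 14 months, with a line for each heifer from its 14-month to its 8-month value. All 16 lines rise to 8 months, from between 1190 and 16695 at 14 months to between 4044 and 47432 at 8 months.

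The acidic stalk proteins stood higher at 8 months on every array but just missed the threshold. RPLP2 had raw intensities of 26205 and 13493, 25845 and 12109, 33854 and 14778, and 22569 and 7013 at 8 and 14 months in heifers 1 to 4. Its log2 ratios were 0.89, 1.03, 0.91 and 1.505, and no 8-month value overlapped the 14-month values. The fitted change of 1.08 ± 0.29 (SD, n = 4) was the highest of the 68 genes and had a limma adjusted p of 0.0539. RPLP1 had log2 ratios of 0.66, 2.10, 0.83 and 0.36, with a raw intensity of 47432 against 10511 in heifer 2 and a smaller gap in the other heifers. Its fitted change was 0.99 ± 0.77 (SD, n = 4; limma adjusted p = 0.0556). Leaving out heifer 1 brought both past the threshold, RPLP2 at 1.19 (limma adjusted p = 0.0470) and RPLP1 at 1.28 (limma adjusted p = 0.0415). Leaving out heifer 2, 3 or 4 did not: RPLP2 had limma adjusted p-values of 0.0506, 0.294 and 0.173, and RPLP1 of 0.0809, 0.323 and 0.175. RPLP1 stood at 0.64 without heifer 2.

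RPLP0, the stalk base and a common reference gene in quantitative PCR, was read by 12 probes that gave unequal answers. Its brightest probe, at the ceiling in 3 of 16 channels, changed by -0.08 (log2 ratios 0.12, 0.23, -0.51 and -0.15). The 5 probes with a raw intensity of 30000 or more in every channel lay between -0.08 and 0.22 (median 0.04), and the other 7 between 0.25 and 0.59 (median 0.38). The ranges of these sets of probes lie next to each other. The gap between them runs from 0.22 to 0.25. All 12 probes read the same RNA on the same arrays, so the standard error of a probe does not measure the spread between probes. Whether the sets differ was not tested. In heifer 2 the difference was wider, 0.01 to 0.42 on the bright probes and 0.56 to 2.48 on the others. None of the 12 passed the adjusted threshold, and the 2 with an unadjusted p under 0.05 by limma had fitted changes of 0.59 and 0.52.

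**Figure D2:**
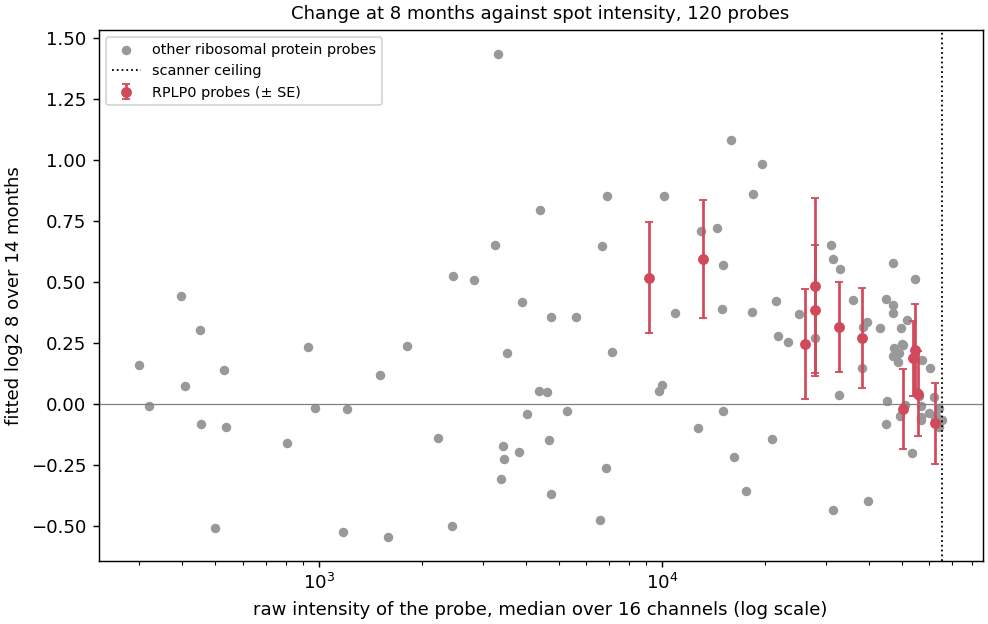
Fitted log2 change from 14 to 8 months against the raw intensity of each of the 120 kept ribosomal protein probes (log scale, median over 16 channels), with the 12 RPLP0 probes in red with their standard errors and the scanner ceiling of 65535 as a dotted line. Changes reach 1.43, on the second RPS9 probe. For the 23 genes whose brightest probe had a raw median of 49112 or more, that probe lies between -0.20 and 0.51.

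Over the genes, the change did not follow intensity in one direction. The 23 genes with the brightest probes (raw median of 49112 or more) had a median change of -0.01 at 8 months and ran from -0.20 to 0.51. The middle 22 genes had a median of 0.35 and ran from -0.43 to 1.08. The 23 dimmest, with raw medians from 535.5 to 15045, had a median of 0.08 and ran from -0.37 to 0.85. Across the 120 probes the Spearman correlation between mean intensity and change at 8 months was 0.022, a description over probes that share arrays and often a gene. The spread between heifers (median SD) was 0.33 for the brightest, 0.47 for the middle and 0.53 for the dimmest genes. When each gene was instead read by its brightest probe that stayed under 60000 in every channel, which left 52 genes, the median change was 0.24 in place of 0.12. Leaving out spots at the ceiling kept the count of called probes at 2.

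Among the other proteins of the small subunit, RPS10 and RPS19 stood highest. RPS10 forms part of the beak of the subunit and is marked by ubiquitin when ribosomes collide. Its log2 ratios of 0.42, 1.64, 0.25 and 1.09 gave a change of 0.85 ± 0.64 (SD, n = 4; limma adjusted p = 0.0754). RPS19, the gene most often mutated in human Diamond-Blackfan anaemia, had log2 ratios of 0.36, 1.58, 0.46 and 1.03 and a change of 0.85 ± 0.57 (SD, n = 4; limma adjusted p = 0.0997). Its binding partner RPS19BP1, outside the ribosome, was also above 0 in all 4 heifers (0.56, 1.19, 0.32 and 0.04). RPS27, a zinc-finger protein, stood at 0.57 ± 0.48 (SD, n = 4) and was below 0 only in heifer 1 (-0.03).

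RPS3A was the only gene lower at an unadjusted p under 0.05. This protein of the small-subunit platform had raw intensities of 27641 and 40335, 32173 and 28739, 27598 and 34491, and 16171 and 21406 at 8 and 14 months in heifers 1 to 4. Its log2 ratios were -0.63, 0.06, -0.59 and -0.57, so heifers 1, 3 and 4 lay close together and heifer 2 apart. The change was -0.43 ± 0.33 (SD, n = 4), with an unadjusted p of 0.0283 and an adjusted p of 0.153 by limma. RPS15A stood at -0.31, with a log2 ratio of -0.0036 in heifer 2 and of -0.79, -0.16 and -0.27 in heifers 1, 3 and 4.

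RPS6, the substrate of the S6 kinases, stood at -0.05 on its brighter probe and 0.23 on the other. RPSA, also known as the laminin receptor precursor, lay between -0.02 and 0.04 on 3 probes. The 25 genes of the small subunit together had a median change of -0.01, and 48.0% of them were above 0, against 51.0% of all genes.

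The large subunit held no gene that passed the adjusted test. Its 39 genes had a median change of 0.18, and 64.1% of them were above 0. RPL28, which budding yeast lacks, had 3 probes close to each other, with fitted changes of 0.60, 0.65 and 0.65. Each had an unadjusted p under 0.05 and a limma adjusted p between 0.109 and 0.124. The brightest of them had log2 ratios of 0.26, 0.50, 0.90 and 0.74, higher at 8 months in every heifer. RPL18 had 4 probes at 0.24, 0.58, 0.65 and 0.72, from the brightest to the dimmest, and the 3 dimmer ones had unadjusted p-values of 0.0108, 0.0188 and 0.00747 in limma. RPL32 had log2 ratios of 0.39, 0.98, 0.37 and 0.31 and a change of 0.51 ± 0.31 (SD, n = 4; limma adjusted p = 0.113).

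RPL26, which lies by the mouth of the exit tunnel, stood at 0.55, and RPL27A at 0.40. At the other end was RPL4, whose loop lines the exit tunnel, at -0.39 (log2 ratios -0.64, 0.13, -1.05 and -0.02). RPL6 stood at -0.35, RPL36A at -0.37, RPL34 at -0.20 and RPL21 at -0.14, and none of them was below 0 in all 4 heifers. The probes of RPL36A disagreed, with 3 between -0.37 and 0.42, of which 1 was above 0. RPL21 had 4 probes between -0.54 and 0.14, of which 1 was above 0. RPL21 was lower in heifers 1 and 2 (-0.83 and -0.50) and higher in heifers 3 and 4 (0.19 and 0.58), which is also the split of the dyes. RPL5 and RPL11, which carry the 5S RNA into the large subunit and bind MDM2, stood at -0.0040 and 0.06.

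**Figure D3:**
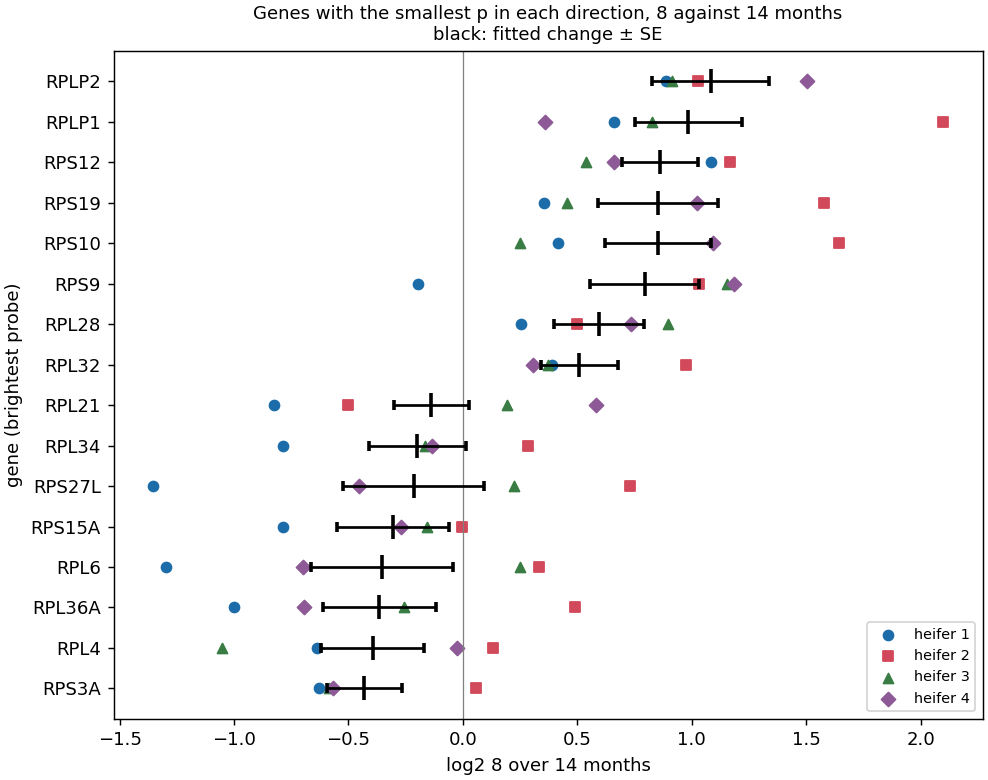
Log2 ratio of 8 over 14 months in each heifer (symbols) and the fitted change with its standard error (black) for the 8 genes with the smallest p above 0 and the 8 with the smallest p below 0. RPS12 and RPLP2 have all heifers at 0.54 or more, while among the lower genes heifer 2 lies above 0 in 6 of 8.

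Several ribosomal proteins have paralogs on the array. RPS27L, which p53 induces in human cells, stood at -0.21 ± 0.90 (SD, n = 4) with log2 ratios from -1.35 in heifer 1 to 0.73 in heifer 2, against 0.57 for RPS27. RPL26L1 had 2 probes at -0.03 and -0.52, against 0.55 for RPL26. RPL7L1, a nucleolar protein of ribosome assembly, had 5 kept probes at 0.71, -0.50, -0.02, -0.51 and 0.16 in order of brightness. The first was above 0 in all 4 heifers, and those at -0.50 and -0.51 were below 0 in all 4, with limma adjusted p-values of 0.124, 0.127 and 0.108. RPL7 stood at 0.05. RPL22L1 stood at 0.08 and RPL39 at -0.04. None of the differences between paralogs and partners was tested. Of the 28 genes with 2 or more kept probes, 10 had probes of opposed sign at 8 months, and the median range between the probes of a gene was 0.26.

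Heifer 2 stood apart in the 8-month comparison. The medians of the 68 genes were -0.03, 0.55, -0.08 and 0.04 in heifers 1 to 4, with 32, 63, 30 and 37 genes above 0. Over all genes 52.5%, 52.6%, 48.2% and 48.1% were above 0. In 51 of 68 genes heifer 2 gave the highest of the 4 ratios, and in none the lowest. That count was not made over all genes, where heifer 2 had the widest spread (SD 1.07, against 0.87, 0.72 and 0.71 in heifers 1, 3 and 4). The fitted median over all heifers was 0.12 (middle 50% of genes from -0.06 to 0.38), beside 0.01 for all genes, and 40 of 68 genes (58.8%) were above 0. Without heifer 2 the fitted median was 0.01 and no member probe passed, and without heifer 3 or 4, whose medians of the genes were near 0, none passed either. Without heifer 1 the median was 0.26, and 6 member probes passed (4 genes by their brightest probe). The shares of all probes that passed in these fits were not counted.

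Markers of other cells also differed between the heifers. In heifer 2 at 8 months the median log2 ratio was -1.26 over the 14 granulosa markers, against -0.39, -0.29 and -0.14 in heifers 1, 3 and 4. It was -1.53 over 13 of 14 leukocyte markers, against 0.14, 0.02 and -0.57. The 12 kept of 16 markers of motile cilia had medians of 2.89, 3.75, -0.03 and 0.07 in heifers 1 to 4. The 14 kept of 18 markers of squamous epithelium, of which 11 rose at 8 months, had medians of 3.89, 1.23, 2.10 and 2.78. The raw intensities of the squamous markers summed to 32154 to 181771 at 8 months, 7892 to 45008 at 11 months and 6415 to 15054 at 14 months. The cilia markers summed to 4170 to 128250, 3888 to 97529 and 3075 to 10833. In bulk RNA, a change in the mix of cells and a change of RNA per cell cannot be told apart. When the medians of squamous and cilia markers, centred over the 8 arrays, were added to the fit, the fitted median of the ribosomal protein genes was 0.44 at 8 months. In that fit 16 member probes passed (7 genes by their brightest probe), among them RPLP1 (1.61), RPS9 (1.301), RPS10 (1.20) and RPLP2 (1.15). The share of all probes that passed in it was not counted. RPS12 then had a change of 0.80 and a limma adjusted p of 0.0583. These values hold at the mean marker level of all 8 arrays, not at equal marker levels at 8 and 14 months. The squamous medians were also higher on every 8-month array than on every 11-month array (0.06 to 0.63). The fit therefore cannot fully separate these markers from age. The part of the granulosa and leukocyte markers in these results was not tested.

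**Figure D4:**
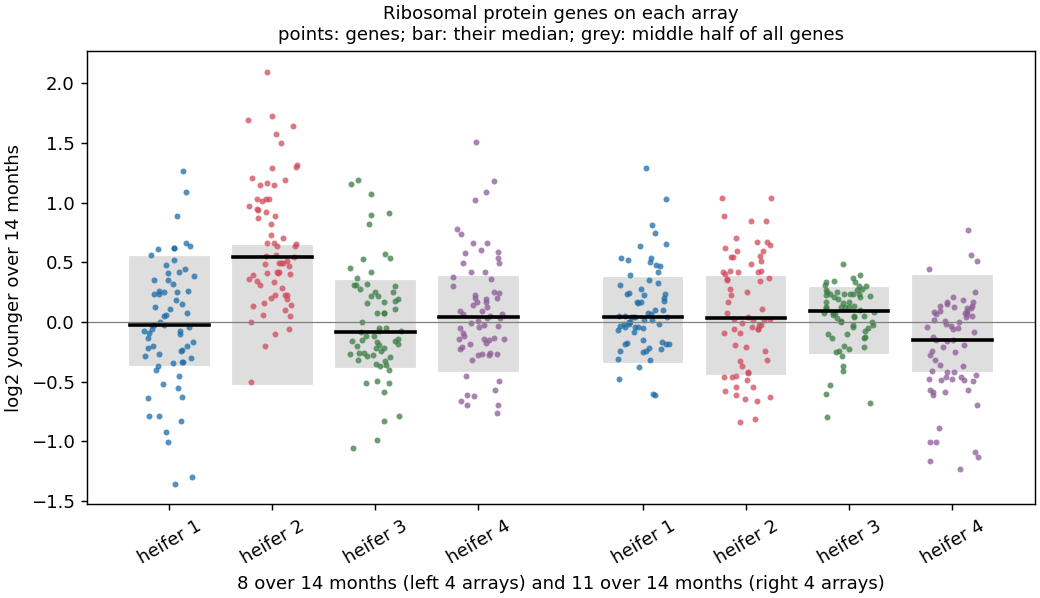
Log2 ratio of the younger age over 14 months for each of the 68 ribosomal protein genes (points, brightest probe) on each array, with their median (bar) and the middle 50% of all 10206 genes (grey). The median of heifer 2 at 8 months is 0.55, and the other 7 medians lie between -0.15 and 0.09.

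At 11 months no ribosomal protein differed from 14 months past the adjusted threshold, nor did any probe of the array (0% called by limma). At an unadjusted p under 0.05, 4 of 120 member probes were higher and none lower, where 3.32% and 4.18% of all probes were. These 4 were RPLP1, RPS12, the second RPS9 probe and the dimmest RPL18 probe, with fitted changes of 0.59, 0.40, 0.67 and 0.60. The comparison uses 14-month RNA of the same heifers as the 8-month one, so these values are not independent of it. The median of the 68 genes was 0.01, and the medians by heifer were 0.05, 0.04, 0.09 and -0.15.

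RPLP1 had raw intensities of 27991 and 18490, 32631 and 8983, 15294 and 13106, and 22801 and 20676 at 11 and 14 months in heifers 1 to 4. The 11-month channel was brighter in all 4, with log2 ratios of 0.63, 1.04, 0.49 and 0.21. The change of 0.59 ± 0.34 (SD, n = 4) had an unadjusted p of 0.0335 and an adjusted p of 0.661 by limma. When the medians of squamous and cilia markers, centred over the 8 arrays, were added to the fit, RPLP1 stood at -0.03. That value holds at the mean marker level of all 8 arrays, not at equal marker levels at 11 and 14 months. The squamous medians of the 11-month arrays were only 0.21, 0.07, 0.06 and 0.63. RPS12 had log2 ratios of 0.65, 0.51, -0.13 and 0.57, with heifer 3 on the other side of 0, and RPLP2 had 1.03, 0.42, 0.17 and -0.58. Across all 4 heifers RPLP1, RPL22L1, RPL38 and RPS4Y1 were higher (4 genes) and RPS3A was lower (1 gene), where 7.19% and 6.4% of all genes were.

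RPS3A changed by -0.22 ± 0.09 (SD, n = 4) at 11 months (log2 ratios -0.24, -0.09, -0.28 and -0.28; limma adjusted p = 0.699). RPS4Y1, a symbol that in humans belongs to a Y-linked copy of RPS4X, stood at 0.30 in these females, and its probe may bind the X-linked copy. RPS19 (0.37), RPL26 (0.25), RPS19BP1 (0.24) and RPL32 (0.20) were the other genes with the smallest p above 0. Below 0 were RPS15A (-0.31), RPL13A (-0.31), RPS26 (-0.25), RPS25 (-0.23), RPL37A (-0.22), RPL34 (-0.20) and RPL21 (-0.17), each with at least 1 heifer on the other side of 0. Of the 28 genes with 2 or more kept probes, 21 had probes of opposed sign at 11 months. Heifer 4 gave the lowest ratio in 31 of 68 genes, a count that was not made over all genes. In this heifer the granulosa markers had a median of -1.28 and the cilia markers one of 3.27.

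The ages of 8 and 11 months met only through 14 months. The test of their difference called no probe of the array (0%), and no gene of the set had a limma adjusted p below 0.827. The genes closest to the threshold were RPL28, 0.72 higher at 8 months (limma adjusted p = 0.827), RPS10, 0.82 higher (limma adjusted p = 0.851), and RPLP2, 0.82 higher (limma adjusted p = 0.919). Of the 68 genes, 51 (75%) stood higher at 8 than at 11 months, with a median of 0.12, against 53.9% of all genes and a median of 0.03. The changes of the genes were also less spread out at 11 months, with an SD over genes of 0.17 against 0.35 at 8 months. Over all genes these SDs were 0.39 and 0.65.

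Dye orientation was the same on both arrays of a heifer. The dye term therefore also holds any difference of heifers 1 and 2 from heifers 3 and 4, and these cannot be told apart. The term was called for no member, against 24 probes of the array (0.106%). Still, 73.5% of the 68 genes had a dye term above 0 (median 0.09, in the direction of Cy5), against 52.7% of all genes (median 0.02). The smallest p-values of the dye term were those of RPL13 (0.65, unadjusted p = 0.0029 by limma), RPL21 (-0.41) and RPL36 (0.50). RPL13 was higher at 8 months with Cy5 on the younger age (0.62 and 1.32 in heifers 1 and 2) and near or below 0 with Cy3 on it (-0.35 and 0.15 in heifers 3 and 4).

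Among all 10206 genes, 3.86% rose at 8 months and 4.64% were called in either direction, the background for the other lists of protein synthesis. Ribosomal proteins of the mitochondrion, which translate only the mitochondrial genome, had 4 of 77 genes that rose at 8 months and none that fell (5.19% risen), with a median of -0.13. MRPS34 rose by 1.37 ± 0.09 (SD, n = 4; limma adjusted p = 0.0122), with log2 ratios of 1.49, 1.26, 1.38 and 1.36. MRPL41 (1.401), MRPS26 (1.25) and MRPL54 (0.95) also rose. Genes with the prefix EIF or EEF, taken as translation factors, also include regulators such as EIF4EBP1 and the kinases EIF2AK2 and EEF2K. Of the 56 kept genes of this list, 5 rose and none fell (8.93% risen, median 0.04). EIF4A1, the helicase that opens mRNA for the small subunit, rose by 1.16 ± 0.22 (SD, n = 4; limma adjusted p = 0.0109) and was higher in all 4 heifers (1.24, 1.37, 0.85 and 1.18). EEF2, which moves the ribosome along the mRNA and docks on the stalk, rose by 1.20 ± 0.46 (SD, n = 4; limma adjusted p = 0.014). EIF6, which keeps free large subunits apart from small ones, rose by 1.08, EIF3G by 0.86 and the kinase EIF2AK2 by 1.68.

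Of 18 other TOP mRNAs, EEF2 and HNRNPA1 (0.85) rose (11.1% of the list, median 0.07). Of 36 kept genes of ribosome assembly, SDAD1 (1.03), EIF6 and the RNA polymerase I and III subunit POLR1D (0.98) rose (8.33% of the list, median -0.04). None of 12 kept genes of the S6 kinase and mTOR list passed (median -0.17). FAU and RACK1, ribosomal proteins of the small subunit under other names, stood at -0.46 and 0.20. No gene of these lists fell, and none passed at 11 months, where the medians lay between -0.24 and 0.02.

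**Figure D5:**
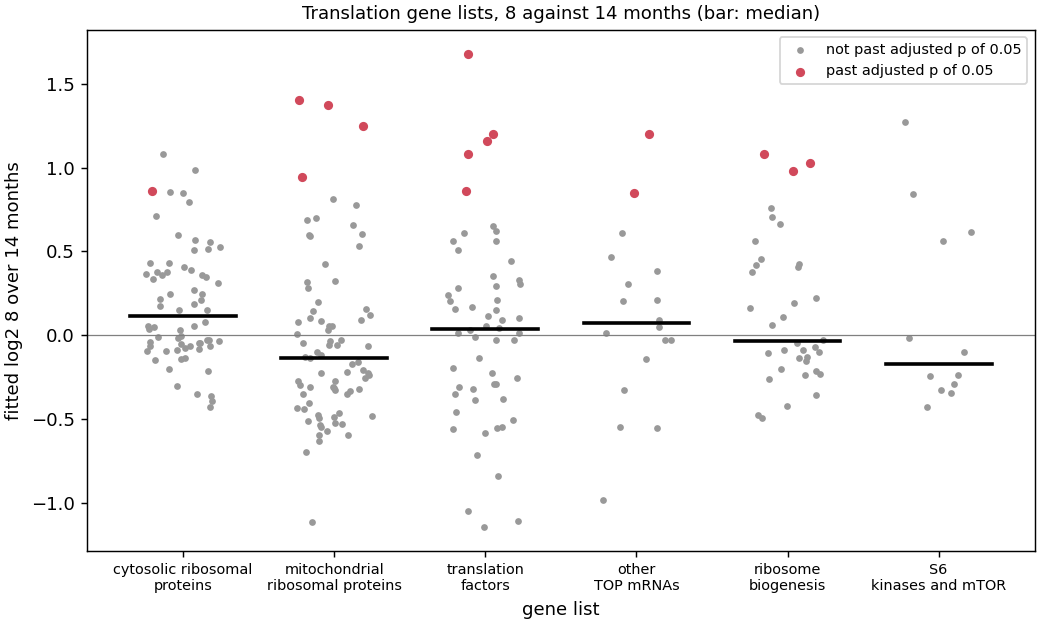
Fitted log2 change from 14 to 8 months of each gene in the cytosolic ribosomal protein set and 5 related lists, with the median as a bar and genes past an adjusted p of 0.05 in red. The medians lie between -0.17 and 0.12, and the red points, 1 to 5 in each list but the last, lie at 0.85 or above.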

How the data were processed

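The authors deposited scanner tables with spot intensity (pixel median and mean) for both channels, without normalization per the file headers, and a table of log2 ratios. The authors' log2 ratios followed Cy5 over Cy3 after background subtraction and loess (correlation from 0.9994 to 0.9999). How they normalized is not stated. A deposited column of another kind marks 22 to 59 ignored spots an array, which were left out.

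The fits used limma 3.58.1 (R 4.3.3): normexp (offset 50) on median intensities, loess within each array, and a fit over all 8 arrays with terms for 8 months, 11 months and dye. Heifer entered as a random block (correlation 0.159), and empirical Bayes tests were adjusted over all kept probes. A probe was kept when it was above background (mean of 153 negative controls plus 2 SD) for 3 or 4 heifers of some age. Array annotation named 21790 probes, and all 69 member symbols matched the current gene table. The pairing comes from the sample titles, which name the same animals in both comparisons. Same-heifer deviations from the means correlated at 0.379, 0.277, 0.447 and -0.109.

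Named genes were those called, the 8 with the smallest p in each direction, stalk genes and other fixed genes, paralogs, and genes with disagreeing or ceiling probes. Genes outside the rule (RPL18, RPL27A, RPL13, RPL36 and RPL38) were chosen after their values were seen. The members and lists were chosen with earlier results of these data known. The fit was tested on simulated data of 22692 probes, with 50 probes given each change at 8 months. It called 0% of log2 changes of 0.5, 20% of changes of 1 and 92% of changes of 2. A change of 1 or less can therefore go uncalled. Few probes changed in the simulation, whereas 878 of 22692 were called at 8 months in the data. The adjusted cutoff depends on how many probes change, so these shares need not hold for the data. Precision is limited by 4 heifers a comparison. The limma p-values rest on a spread pooled over all 8 arrays and moderated by that of all probes, so they do not follow the printed SD. At 8 months RPLP1 had an SD of 0.77 and a standard error of 0.23, and RPLP2 an SD of 0.29 and a standard error of 0.26.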

Additional observations from a re-analysis of the deposited data

Results flagged for a closer look

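Of 86 groups of 4 heifers tested by Dixon's criterion, 9 had 1 heifer far from the other 3. Chance alone gives about 1 in 20 (5%) of independent groups, but these groups share arrays. The share over all genes is not given, so no excess in these genes can be read from the count. At 8 months heifer 2 lay apart in RPL32 (0.976, others 0.305 to 0.388), RPS29 (0.31, others -0.215 to -0.142) and RPS3A (0.057, others -0.631 to -0.566). Heifer 1 lay apart in the brightest probe of RPS9 (-0.198, others 1.034 to 1.185).

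At 11 months heifer 2 lay low in RPS2 (-0.484, others -0.016 to 0.074), RPS21 (-0.58, others -0.038 to 0.048) and RPSA (-0.659, others 0.079 to 0.23). RPS2 and RPS21 reached the scanner ceiling in 3 and 4 of 16 channels. Heifer 4 lay low in RPS26 (-1.134, others -0.058 to 0.123) and RPS6 (-0.446, others 0.018 to 0.073). No cause was tested.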

How the results depend on the processing

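At 8 months 2 probes were called, and 1 gene when each gene was read by its brightest probe. Probes were counted over all kept member probes and genes by the brightest probe. In the alternatives the calls over the whole array were not counted. A change in these counts therefore cannot be told apart from a change in calls over all probes. The numbers of probes and genes called were 9 and 8 with mean pixel intensity, 15 and 9 with array weights, 16 and 7 with squamous and cilia marker medians added as covariates, and 4 and 3 with a dye term for each comparison. Without a dye term 1 probe was called. Genes called were 2 with the authors' deposited ratios, with the filter in all 4 heifers, with only the arrays of the comparison, and without the 11-month arrays of heifers 1 and 4. Without the replicate block 2 genes were called, and with a fixed replicate block the counts were 4 probes and 3 genes. Leaving out 1 heifer gave 0 to 6 probes and 0 to 4 genes, and 0 to 13 for the dye term (13 without heifer 1), which stood at 1 with the covariates. No alternative called a member at 11 months or between 8 and 11 months. RPS12 was called in 16 of 22 alternatives (0.71 to 0.93) and the second RPS9 probe in 16 of 21 (1.17 to 1.98). RPLP2 was called in 8 of 22 and RPLP1 in 7. The median at 8 months was 0.436 with the covariates, and that at 11 months -0.247. The covariates were centred, so both values hold at the mean marker level of the 8 arrays.

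Genes that passed in neither setting changed sign as follows, and many were near 0 at first. Further from 0 at 11 months were RPLP1 (0.59), RPS19 (0.37), RPS15A (-0.31), RPL13A (-0.31), RPS26 (-0.25), RPS19BP1 (0.24), RPS25 (-0.23) and RPL32 (0.20). At 8 months these were RPL36A (-0.37), RPL6 (-0.35), RPS15A (-0.31), RPS27L (-0.21) and RPL34 (-0.20). The cause was not tested. With array weights RPSA stood at -0.075 at 8 months, and RPSA, RPS6 and RPL11 at 0.107, 0.024 and -0.028 at 11 months. With the authors' ratios RPL5 stood at 0.011 at 8 months. With the mean of a gene's probes RPL36A, RPLP0 and RPS6 stood at 0.054, 0.265 and 0.09 at 8 months and RPL11 at -0.086 at 11 months. With mean pixel intensity RPS27L and RPSA stood at 0.068 and -0.044 at 8 months, and RPLP0, RPL11 and RPL5 at -0.081, -0.116 and -0.025 at 11 months. With median normalization RPSA and RPS6 stood at 0.033 and 0.0 at 11 months. Without background correction RPSA and RPL11 stood at -0.021 and -0.004 at 8 months. The values with the covariates hold at the mean marker level of the 8 arrays. There RPL36A, RPS15A, RPL6, RPL34, RPS27L, RPS6 and RPL5 stood at 0.265, 0.171, 0.53, 0.24, 0.726, 0.234 and 0.72 at 8 months, and RPLP1, RPS19BP1, RPL32, RPL11 and RPL5 at -0.029, -0.018, -0.059, -0.49 and -0.65 at 11 months. Without the 11-month arrays of heifers 1 and 4, RPS19, RPS15A, RPL13A, RPS26, RPS25 and RPS6 stood at -0.044, 0.18, 0.078, 0.035, 0.167 and 0.047 at 11 months. Without the 8-month arrays of heifers 1 and 2, RPS15A, RPL21, RPSA and RPL5 stood at 0.011, 0.088, -0.366 and 0.055 at 8 months. Leaving out 1 heifer gave at 8 months RPL6 from -0.695 to 0.065, RPL34 from -0.418 to 0.011, RPS27L from -0.645 to 0.253, RPS6 from -0.199 to 0.098, RPL5 from -0.328 to 0.34, RPSA from -0.091 to 0.254, RPL11 from -0.12 to 0.321 and RPLP0 from -0.135 to 0.038. At 11 months it gave RPSA from -0.13 to 0.157, RPL11 from -0.242 to 0.179, RPL5 from -0.234 to 0.363, RPL13A from -0.506 to 0.093, RPS26 from -0.469 to 0.081 and RPS6 from -0.176 to 0.019. A spot at the scanner ceiling gives only a lower bound on its signal. Reading each gene by its brightest probe under 60000 in every channel was chosen after seeing the data.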
